A study of Mus musculus with 20 samples.

Results

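A set of 38 genes of the interferon response and of antigen presentation was examined in the brains of *Winnie* mice and C57BL/6 mice. The genes were taken by name from the deposited expression table, which lists 17211 genes, and all 38 were found in it. *Winnie* mice carry a missense mutation in *Muc2*, the main gel-forming mucin of the intestine, and develop chronic colitis spontaneously. RNA was prepared from the brain of each mouse, with no brain region named, and 10 C57BL/6 and 10 *Winnie* brains are labelled, each group with 5 mice labelled female and 5 labelled male. The mice were 14 weeks old and came from the same colony, with the C57BL/6 mice described as littermates of the *Winnie* mice. Levels are given as CPM, the reads of a gene scaled to a common total per brain.

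Interferons are secreted when a cell senses viral nucleic acid or receives an inflammatory signal. Type I interferon binds a receptor that activates JAK1 and TYK2, which phosphorylate STAT proteins. STAT2 and IRF9 are subunits of the complex ISGF3, which binds an element known as the interferon-stimulated response element and switches on antiviral genes. Interferon gamma is a strong inducer of immunity GTPases and of the proteins that load peptides onto major histocompatibility complex class I. In the brain, microglia, endothelial cells and border macrophages are known to respond strongly to interferon.

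Facts on all libraries that bear on these genes are few. Total reads per brain ranged from 16540303 to 23923769, so that 1 read was worth 0.0418 to 0.0605 CPM and a gene at 1 CPM rested on about 17 to 24 reads. In 9 of the 10 C57BL/6 brains, and in 0 of the 10 *Winnie* brains, *Xist* and *Ddx3y* went against the labelled sex, so sex is given below as labelled. The library numbers ran from 1 to 10 in C57BL/6 and from 11 to 20 in *Winnie* brains, so that any effect of this order cannot be told apart from that of genotype. The labelled tissue was checked against defining markers, and all 9 markers of neurons, 9 of astrocytes and 8 of oligodendrocytes were listed.

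None of the 38 genes differed between *Winnie* and C57BL/6 brains at a false discovery rate (FDR) under 0.05. Of all genes tested, 2.52% passed that threshold. At the stricter threshold of the study, an FDR under 0.001 with a 1.5-fold change, 0 of the 38 genes and 0% of all genes passed by limma. The study applied that threshold with edgeR to fewer brains. It reported brain differences in genes of tryptophan and nicotinamide metabolism, so the limma count does not repeat its test. At an unadjusted p under 0.05, 2 of the 38 genes passed, *Ifi27* and *Ifi35*, and both were lower in *Winnie* brains. On the recovered reads, edgeR also called 0 of the 38 genes at an FDR under 0.05 and 2 at an unadjusted p under 0.05. DESeq2 called the same numbers, but it gave an adjusted p for 30 of the genes only, and *Ifi35* was among the 8 without one. The background at that threshold was 17.6% of all genes in either direction and 8.08% of all genes lower in *Winnie*, so the share among the 38 genes was lower than both. The test was limma on log2(CPM + 0.5) with 10 brains per group and Benjamini-Hochberg adjustment over all genes, and log2 fold changes are given as *Winnie* minus C57BL/6.

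The point estimates lay slightly below 0. The difference was negative for 28 of the 38 genes and positive for 10, where 49.0% of all genes were negative. The median log2 fold change was −0.04 over the 38 genes and 0.00 over all genes. The differences ran from −0.22 for *Ifi35* to 0.16 for *Rtp4*. For all 38 genes the 95% confidence interval of the difference lay inside a 1.5-fold change in either direction, as it did for 97.9% of all genes. The ranges of the groups overlapped for all 38 genes, and did not overlap for 0.0291% of all genes. On the scale of the limma test, a 1.5-fold difference thus lay outside the interval of each gene, taken 1 gene at a time. This held for nearly all genes and is not particular to the set. Smaller differences were not resolved. That scale adds a constant to CPM, which shrinks the fold changes of genes at low CPM. On recovered reads, DESeq2 gave log2 fold changes (± SE) of −0.26 ± 0.22 for *Isg15*, −0.23 ± 0.23 for *Nlrc5* and −0.19 ± 0.29 for *Usp18*. For these genes a 1.5-fold difference was not excluded.

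**Figure D1:**
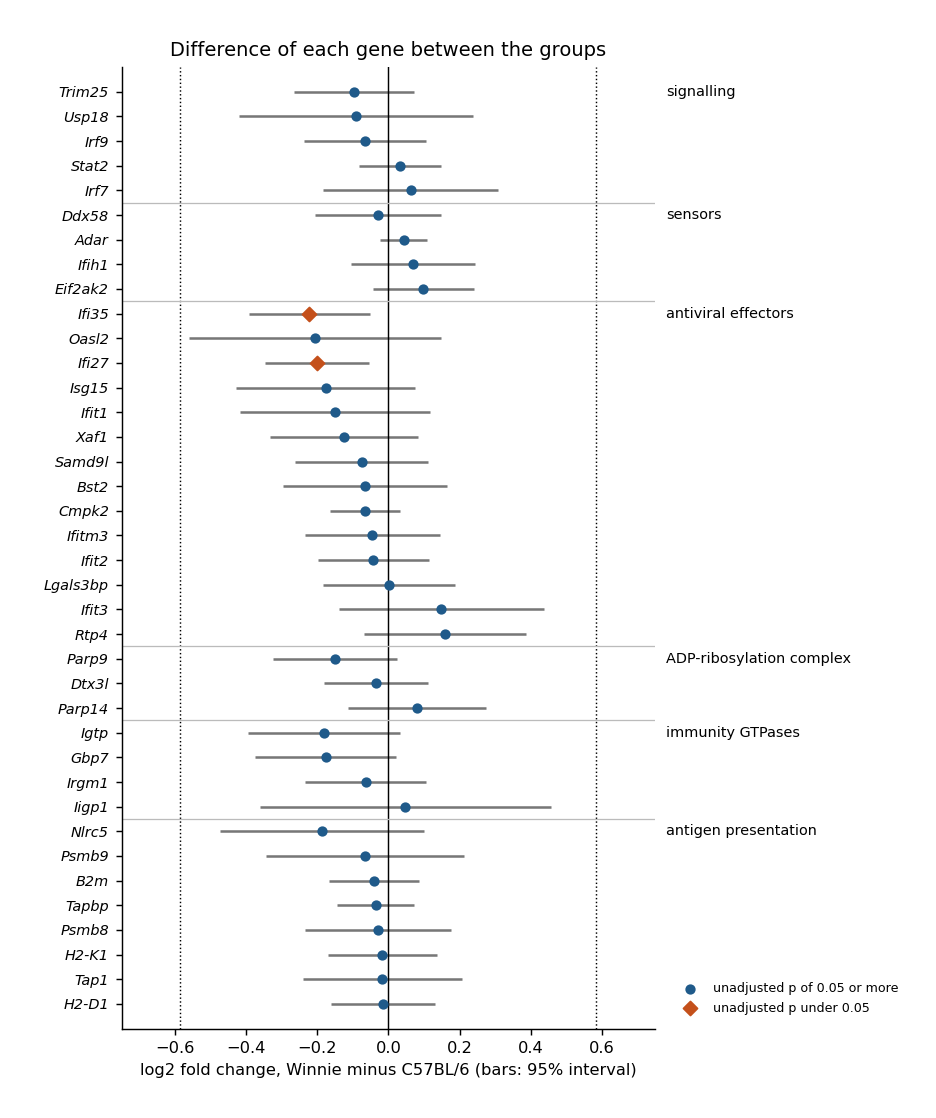
Log2 fold change of each of the 38 genes, *Winnie* minus C57BL/6, with its 95% confidence interval from limma on 10 against 10 brains. Genes are grouped by role, and dotted lines mark a 1.5-fold change on the scale of the limma test. Diamonds mark *Ifi27* and *Ifi35*, whose unadjusted p was under 0.05. Every interval lies between the dotted lines, and 28 of the 38 points lie left of 0.

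A control element known from these genes was looked for in their promoters. The RefSeq promoter table (GRCm38.p6, 250 bases before to 50 bases after a gene's start) held 31 of the 38 genes. The letters searched for were 2 copies of GAAA separated by any 2 bases, the core of the interferon-stimulated response element, on both strands and with overlapping copies allowed. They occurred in 13 of the 31 promoters (41.9%) and in 3.99% of the promoters of all 27025 genes in the table. In 9 genes, *Stat2*, *Isg15*, *Ifit1*, *Ifit3*, *Bst2*, *Gbp7*, *Igtp*, *Irgm1* and *B2m*, a match lay before the start, and in *Ddx58*, *Eif2ak2*, *Ifih1* and *Ifitm3* matches lay only after it. The windows of 5 genes are shown, 1 each for an antiviral modifier, a member of the *Ifit* cluster, a guanylate-binding protein, an immunity-related GTPase and a class I subunit. The capitals mark the matching letters, and a match describes letters only. *Isg15* carries 3 overlapping copies and *Irgm1* 2, *Ifit3* carries 2 copies apart in the opposite orientation, and *Gbp7* and *B2m* carry 1.
Isg15, chr4:156200850-156200921, minus strand: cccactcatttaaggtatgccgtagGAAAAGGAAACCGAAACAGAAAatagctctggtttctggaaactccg
Ifit3, chr19:34583348-34583441, plus strand: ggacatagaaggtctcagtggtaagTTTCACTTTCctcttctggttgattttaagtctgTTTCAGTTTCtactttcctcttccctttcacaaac
Gbp7, chr3:142530258-142530317, plus strand: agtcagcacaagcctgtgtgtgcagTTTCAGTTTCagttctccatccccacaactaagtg
Irgm1, chr11:48871421-48871475, minus strand: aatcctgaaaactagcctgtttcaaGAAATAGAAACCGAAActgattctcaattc
B2m, chr2:122147523-122147582, plus strand: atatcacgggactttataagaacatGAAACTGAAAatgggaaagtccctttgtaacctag

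Levels per length, which allow genes to be compared with each other, covered a wide range. On the scale of CPM per kilobase of exon, averaged over the 20 brains, *B2m*, the invariant light chain of class I, was the highest at 103. *Adar*, the enzyme that edits adenosine to inosine in double-stranded RNA, followed at 30.1. *Ifitm3*, which blocks viral entry at membranes, was at 13.9, and the class I heavy chain *H2-D1* was at 12.2. The lowest were *Nlrc5*, the transactivator of class I genes, at 0.106, and *Psmb9* and *Usp18*, both at 0.262. *Isg15*, at 1.06 on this scale, averaged 0.878 ± 0.227 CPM in C57BL/6 and 0.730 ± 0.284 CPM in *Winnie* brains (SD, n = 10), on 7 to 26 reads per brain. In all, 4 of the 38 genes had a mean under 1 CPM.

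The ligands that would induce these genes were not listed. The table holds genes at 0.5 CPM or more in at least 4 brains, and none of the 7 interferon genes looked for (*Ifna1*, *Ifna2*, *Ifna4*, *Ifnb1*, *Ifng*, *Ifnl2*, *Ifnl3*) was among them. The receptor genes were listed, 6 of 6. *Ifnar1*, a chain of the type I interferon receptor, was at 34.2 to 40.2 CPM with a median of 37.9 in C57BL/6 brains and at 38.3 to 43.0 CPM with a median of 40.8 in *Winnie* brains. All 10 *Winnie* brains lay above the C57BL/6 median, with ranges that overlapped (log2 fold change 0.11 ± 0.04 SE, FDR = 0.125 by limma). None of the receptor genes, and none of 15 genes of signal transduction from the receptors such as *Jak1* and *Tyk2*, passed an FDR under 0.05 by limma, and at an unadjusted p under 0.05 they held 1 and 2 genes.

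Signalling genes within the set comprised 5 members, with 2 positive and 3 negative differences. *Stat2* was at 18.9 to 26.5 CPM with a median of 22.2 in C57BL/6 brains and at 18.9 to 25.6 CPM with a median of 22.3 in *Winnie* brains. The groups covered almost the same range, and the log2 fold change was 0.03 ± 0.06 (SE, FDR = 0.811). *Irf7*, the factor that amplifies type I interferon production, was at 1.21 to 2.78 CPM with a median of 1.76 in C57BL/6 and at 1.395 to 3.06 CPM with a median of 1.69 in *Winnie* brains. Its log2 fold change was 0.06 ± 0.12 (FDR = 0.842), and 5 *Winnie* brains lay above and 5 below the C57BL/6 median. *Irf9*, the DNA-binding subunit of ISGF3, had a log2 fold change of −0.07. *Trim25*, a ubiquitin ligase of the RIG-I pathway, had one of −0.10. *Usp18*, which removes ISG15 from proteins and dampens the type I receptor, had one of −0.09 and differed 4.77-fold between its highest and lowest brain.

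Among the 4 RNA sensors and effectors that bind double-stranded RNA, 3 differences were positive and 1 negative, and none passed an unadjusted p under 0.05. *Eif2ak2*, the kinase PKR that halts translation, was at 6.02 to 8.35 CPM with a median of 6.59 in C57BL/6 brains and at 6.32 to 9.11 CPM with a median of 7.202 in *Winnie* brains. It lay above the C57BL/6 median in 9 of 10 *Winnie* brains, with a log2 fold change of 0.10 ± 0.07 (FDR = 0.492). *Ifih1*, which encodes the sensor MDA5, had a log2 fold change of 0.07, and *Ddx58*, which encodes RIG-I, had one of −0.03. *Adar* varied least of all 38 genes over the 20 brains, 1.18-fold from its lowest to its highest, and had a log2 fold change of 0.04. Around these sensors, 15 of 16 other genes of nucleic acid sensing were listed, and 1 passed an FDR under 0.05. That gene was *Aim2*, a sensor of cytosolic DNA that assembles an inflammasome. *Aim2* was at 1.97 to 3.16 CPM with a median of 2.46 in C57BL/6 brains and at 2.89 to 3.99 CPM with a median of 3.14 in *Winnie* brains, and rose in *Winnie* by 0.31 ± 0.08 on the log2 scale (FDR = 0.037). All 10 *Winnie* brains lay above the C57BL/6 median.

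The antiviral effectors were the largest group, with 14 members, of which 11 had negative and 3 positive differences. They held both genes with an unadjusted p under 0.05. *Ifi27* (chr12:103434211-103440239, plus strand), a membrane protein strongly induced by type I interferon, was at 12.2 to 15.2 CPM with a median of 13.9 in C57BL/6 brains and at 9.498 to 15.5 CPM with a median of 11.8 in *Winnie* brains. Of the *Winnie* brains, 7 lay below every C57BL/6 brain and 1, replicate 4, lay above every one. The log2 fold change was −0.20 ± 0.07 with a 95% interval of −0.35 to −0.06 (unadjusted p = 0.00861, FDR = 0.121 by limma). Without *Winnie* replicate 4 it was the only member to pass, at an FDR of 0.0497. The share of all genes that passed in that fit was not determined.

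*Ifi35* (chr11:101448407-101458698, plus strand), a leucine zipper protein induced by interferon, was at 1.45 to 2.25 CPM with a median of 1.75 in C57BL/6 brains and at 1.18 to 1.72 CPM with a median of 1.51 in *Winnie* brains. All 10 *Winnie* brains lay below the C57BL/6 median, and 8 of 10 C57BL/6 brains lay above every *Winnie* brain, while C57BL/6 replicates 3 and 5, at 1.67 and 1.45 CPM, lay within the *Winnie* range. The log2 fold change was −0.22 ± 0.08 (unadjusted p = 0.0121, FDR = 0.142), on 20 to 40 reads per brain. An antisense transcript, *Gm11626*, overlaps an exon of *Ifi35*, and the sources used here do not say whether reads were counted by strand.

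*Isg15*, the ubiquitin-like modifier whose promoter is shown above, was at 0.442 to 1.24 CPM with a median of 0.892 in C57BL/6 brains and at 0.376 to 1.39 CPM with a median of 0.674 in *Winnie* brains. *Winnie* brains held both its highest value, in replicate 4, and its lowest, in replicate 7, and the log2 fold change was −0.18 ± 0.12 (FDR = 0.479). *Rtp4*, a chaperone of receptor transport that binds viral RNA, had the largest positive difference of the set. It was at 1.29 to 2.999 CPM with a median of 1.99 in C57BL/6 and at 1.77 to 2.97 CPM with a median of 2.33 in *Winnie* brains (log2 fold change 0.16 ± 0.11, FDR = 0.488). *Oasl2*, of the 2'-5' oligoadenylate synthetase family, had the widest range over brains on the log2(CPM + 0.5) scale among the members at 1 CPM or more. It was at 3.18 to 7.73 CPM with a median of 5.13 in C57BL/6 brains and at 2.42 to 7.08 CPM with a median of 4.18 in *Winnie* brains. Its log2 fold change was −0.21 ± 0.17 (FDR = 0.570), and the highest brain had 3.20 times the CPM of the lowest.

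*Ifit3*, of the family that binds foreign RNA ends, had a distribution that its mean did not describe. C57BL/6 brains were at 4.64 to 12.2 CPM with a median of 6.06 and *Winnie* brains at 6.65 to 10.4 CPM with a median of 7.56. All 10 *Winnie* brains lay above the C57BL/6 median, but C57BL/6 replicates 8 and 9, at 12.2 and 11.2 CPM, exceeded every *Winnie* brain. The log2 fold change was 0.15 ± 0.14 (FDR = 0.629). *Ifit3* has a close copy, *Ifit3b*, and the counting could split reads between them. The neighbouring *Ifit1* and *Ifit2* had log2 fold changes of −0.15 and −0.04. For *Ifit1*, 9 of 10 *Winnie* brains lay below the C57BL/6 median, the opposite side from *Ifit3*.

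The other antiviral effectors lay close to 0. *Xaf1*, which promotes apoptosis, had a log2 fold change of −0.13. *Samd9l*, which restricts virus translation and cell growth, had one of −0.07, as did *Cmpk2*, a mitochondrial nucleotide kinase, and *Bst2*, the tether of budding virus. *Ifitm3* was at −0.05. *Lgals3bp*, a secreted glycoprotein that binds galectin, was at 0.00, and its sign turned with the scaling of the libraries. *Lgals3bp* was at 17.8 to 28.9 CPM in C57BL/6 and at 17.2 to 28.996 CPM in *Winnie* brains.

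**Figure D2:**
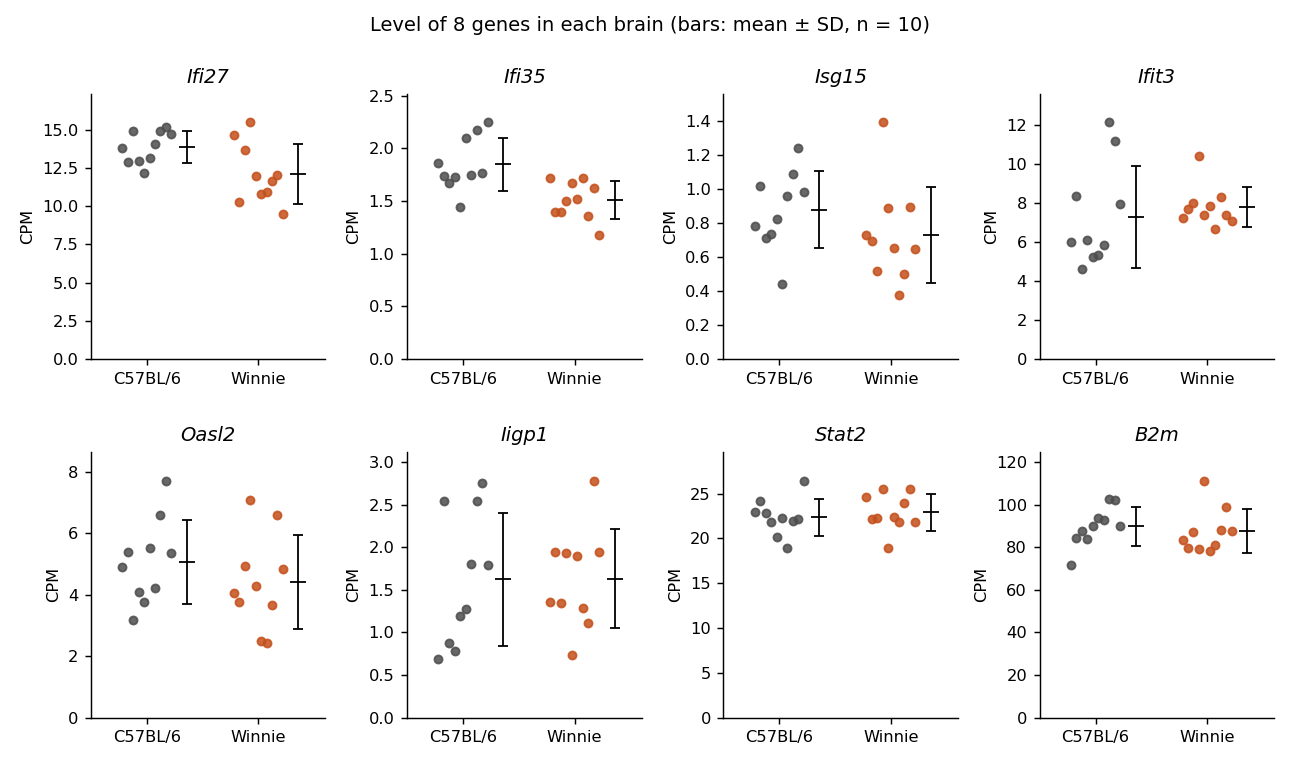
CPM of 8 genes in each of the 20 brains, with the mean and SD of each group (n = 10), on axes that start at 0. The points of *Winnie* and C57BL/6 brains overlap in all 8 panels, including *Ifi27* and *Ifi35*, and *Ifit3* shows the 2 C57BL/6 brains at 11.2 and 12.2 CPM above all *Winnie* brains.

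The complex of ADP-ribosylation had 3 members. *Parp9*, which forms a complex with *Dtx3l* and supports interferon signalling, was at 2.48 to 3.77 CPM with a median of 3.11 in C57BL/6 brains and at 2.26 to 3.66 CPM with a median of 2.85 in *Winnie* brains. It lay below the C57BL/6 median in 8 of 10 *Winnie* brains (log2 fold change −0.15 ± 0.09, FDR = 0.366). The ubiquitin ligase *Dtx3l* had a log2 fold change of −0.04, and the ADP-ribosyltransferase *Parp14* had one of 0.08. *Parp9* and *Dtx3l* overlap on opposite strands at their 5' ends, so reads from the shared bases could have been counted for either.

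Immunity GTPases, the proteins that attack the membranes around intracellular pathogens, had 4 members with 3 negative and 1 positive difference. *Gbp7* was at 3.87 to 6.58 CPM with a median of 5.47 in C57BL/6 brains and at 3.36 to 5.88 CPM with a median of 4.43 in *Winnie* brains. It lay below the C57BL/6 median in 9 of 10 *Winnie* brains (log2 fold change −0.18 ± 0.10, FDR = 0.351). *Igtp*, also called IRGM3, was at 2.65 to 4.43 CPM with a median of 3.68 in C57BL/6 brains and at 2.24 to 4.45 CPM with a median of 3.02 in *Winnie* brains. Its log2 fold change was −0.18 ± 0.10 (FDR = 0.378), and its exons overlap those of *Irgm2*. *Irgm1*, a regulator of the other immunity-related GTPases, had one of −0.06.

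*Iigp1*, the effector GTPase against *Toxoplasma* and *Chlamydia*, varied strongly between brains of each group. It was at 0.686 to 2.75 CPM with a median of 1.53 in C57BL/6 brains and at 0.733 to 2.78 CPM with a median of 1.63 in *Winnie* brains, a 4.06-fold range. The log2 fold change was 0.05 ± 0.20 (FDR = 0.936), with a 95% interval of −0.36 to 0.46. Of 14 other immunity GTPase genes, 10 were listed, with 5 negative and 5 positive differences and none at an unadjusted p under 0.05.

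All 8 members of antigen presentation had negative differences, and none passed an unadjusted p under 0.05. Their median log2 fold change was −0.03. *B2m* was at 71.9 to 103 CPM with a median of 89.8 in C57BL/6 brains and at 78.3 to 111 CPM with a median of 85.4 in *Winnie* brains, and 8 of 10 *Winnie* brains lay below the C57BL/6 median. The difference was small beside the spread, a log2 fold change of −0.04 ± 0.06 (FDR = 0.790). *Tap1*, a subunit of the peptide transporter, was at 2.17 to 4.23 CPM with a median of 3.11 in C57BL/6 and at 2.52 to 3.81 CPM with a median of 3.30 in *Winnie* brains. *Tap1* had a log2 fold change of −0.02 ± 0.11 (FDR = 0.961), and its median was higher in *Winnie* brains, opposite to the sign of the mean. The medians of *Psmb8*, *Psmb9*, *H2-D1* and *H2-K1* were also higher in *Winnie* brains. Those of *B2m*, *Tapbp* and *Nlrc5* were lower.

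*H2-K1*, a class I heavy chain, was at 16.1 to 25.6 CPM with a median of 18.6 in C57BL/6 brains and at 16.6 to 22.2 CPM with a median of 18.8 in *Winnie* brains (log2 fold change −0.02 ± 0.07, FDR = 0.939). *H2-D1*, the other classical heavy chain, had a log2 fold change of −0.02. Class I genes share much sequence, so reads could be split between them. *Tapbp*, the tapasin that holds class I near the transporter, had a log2 fold change of −0.04. The immunoproteasome subunits *Psmb8* and *Psmb9* had −0.03 and −0.07, and *Nlrc5* had the largest at −0.19. *Psmb9* overlaps *Tap1* on the opposite strand. Leaving out a single brain turned the sign of *Psmb8*, *Psmb9*, *Tap1*, *H2-D1* and *H2-K1*, so the shared negative sign of the 8 genes rested in part on individual brains.

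Neighbouring steps of presentation gave a mixed picture. Of 19 other class I genes, 18 were listed, and 2 fell in *Winnie* at an FDR under 0.05. *Calr*, the chaperone calreticulin of class I loading and of the endoplasmic reticulum in general, was at 371 to 489 CPM with a median of 394 in C57BL/6 brains and at 290 to 362 CPM with a median of 329 in *Winnie* brains. The groups did not overlap, and the log2 fold change was −0.29 ± 0.04 (FDR = 0.00108). *Pdia3*, the disulfide isomerase of the same loading complex, had a median of 188 CPM in C57BL/6 and of 174 CPM in *Winnie* brains, with ranges that overlapped (log2 fold change −0.16 ± 0.04, FDR = 0.0374). Both are also known to fold many other glycoproteins.

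Class II presentation, the function of border macrophages and activated microglia, had 8 of 11 genes listed and none at an FDR under 0.05. Of these, 5 had positive and 3 negative differences, with a median log2 fold change of 0.07. *H2-Eb1* lay above the C57BL/6 median in all 10 *Winnie* brains (log2 fold change 0.33 ± 0.11, unadjusted p = 0.00774, FDR = 0.115), and *Cd74*, the invariant chain, in 9 of 10 (0.21 ± 0.09, unadjusted p = 0.0207, FDR = 0.186). *Ciita*, the class II transactivator, was not listed. Of 58 other interferon-stimulated genes, 44 were listed, with 29 negative and 15 positive differences, a median log2 fold change of −0.03, none at an FDR under 0.05 by limma, and 1 higher and 2 lower at an unadjusted p under 0.05. Those not listed included *Mx1*, *Oas1a*, *Cxcl9* and *Ccl5*.

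The genes varied more between brains of 1 group than between groups. The mean of the 38 centred log2(CPM + 0.5) values was 0.0255 ± 0.166 in C57BL/6 and −0.0255 ± 0.133 in *Winnie* brains (SD, n = 10), a difference of −0.0509 against a range of 0.468 over all brains. C57BL/6 brains ran from −0.165 to 0.271 with a median of −0.00432, and *Winnie* brains from −0.196 to 0.242 with a median of −0.0689. The difference was −0.0236, −0.0286 and −0.0331 without C57BL/6 replicates 8, 9 and 2, −0.0319 without *Winnie* replicate 7 and −0.0806 without *Winnie* replicate 4. Low and high brains were thus found in both groups, and single brains moved the difference by more than 1.5 times.

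A few brains carried high values of most of the genes. The mean was 0.271 in C57BL/6 replicate 8, 0.242 in *Winnie* replicate 4, 0.226 in C57BL/6 replicate 9, 0.186 in C57BL/6 replicate 2, 0.168 in *Winnie* replicate 9 and 0.126 in C57BL/6 replicate 10. The remaining 14 brains lay at 0.0273 or below. C57BL/6 replicate 8 lay above the median of the 20 brains in 35 of the 38 genes, and *Winnie* replicate 4 in 33, while C57BL/6 replicate 4 and *Winnie* replicate 7 each did so in 5. *Winnie* replicate 4 was the highest of all brains for 10 genes, among them *Irf7*, *Isg15*, *Eif2ak2*, *Ifih1* and *Ifi27*. C57BL/6 replicate 2 was the highest for 7 genes, among them *H2-K1*, *H2-D1*, *Psmb9* and *Tapbp*.

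**Figure D3:**
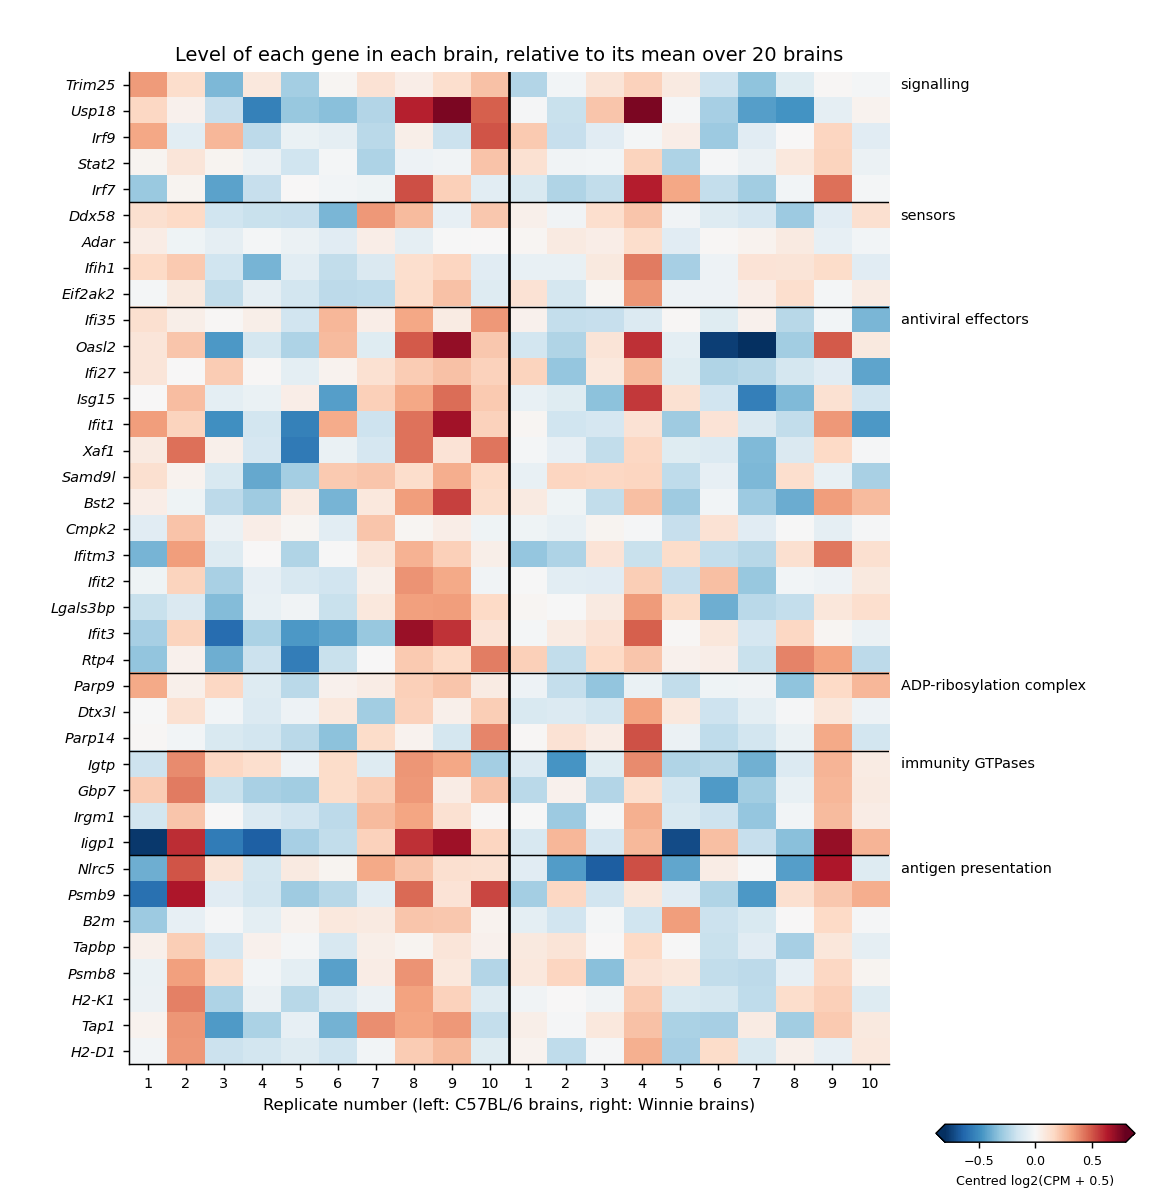
Centred log2(CPM + 0.5) of the 38 genes (rows, grouped by role) in the 20 brains (columns, C57BL/6 left of the line and *Winnie* right of it), with values beyond the ends of the colour scale drawn at its ends. The columns of C57BL/6 replicates 2, 8 and 9 and *Winnie* replicates 4 and 9 are mostly high, and those of C57BL/6 replicates 3 to 5 and *Winnie* replicate 7 are mostly low.

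The high brains differed in which genes were high. By the mean of the antigen presentation genes, C57BL/6 replicate 2 ranked 1 of the 20 brains at 0.339, while by the mean of the signalling genes it ranked 7 at 0.0418. *Winnie* replicate 4 had the reverse order, 1 for signalling at 0.347 and 4 for antigen presentation at 0.182. C57BL/6 replicate 10 ranked 2 for signalling and 8 for antigen presentation. *Usp18* was at 1.33, 1.504 and 1.15 CPM in C57BL/6 replicates 8, 9 and 10 and at 1.501 CPM in *Winnie* replicate 4, but at 0.714 CPM in C57BL/6 replicate 2 and 0.630 CPM in *Winnie* replicate 9. *Iigp1* was at 2.55 CPM in C57BL/6 replicate 2 and 2.78 CPM in *Winnie* replicate 9, and also at 2.54 and 2.75 CPM in C57BL/6 replicates 8 and 9.

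Genes outside the set placed these brains differently by list. By the mean of the 44 other interferon-stimulated genes, the same 6 brains took ranks 1 to 6, with 0.159 in C57BL/6 replicate 8 at the top and 0.0745 in C57BL/6 replicate 10 at rank 6, though in another order. Other lists placed them together in part. In the order C57BL/6 replicates 8, 9, 2 and 10, then *Winnie* replicates 4 and 9, ranks differed by list. They were 4, 2, 1, 12, 3 and 5 by the mean of other class I genes. By that of other immunity GTPases they were 7, 3, 1, 5, 6 and 2. Nucleic acid sensing gave 14, 5, 7, 11, 2 and 1, and class II presentation gave 20, 14, 4, 15, 9 and 3. The genes come from the same libraries, so these ranks describe the libraries and are no second measurement.

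**Figure D4:**
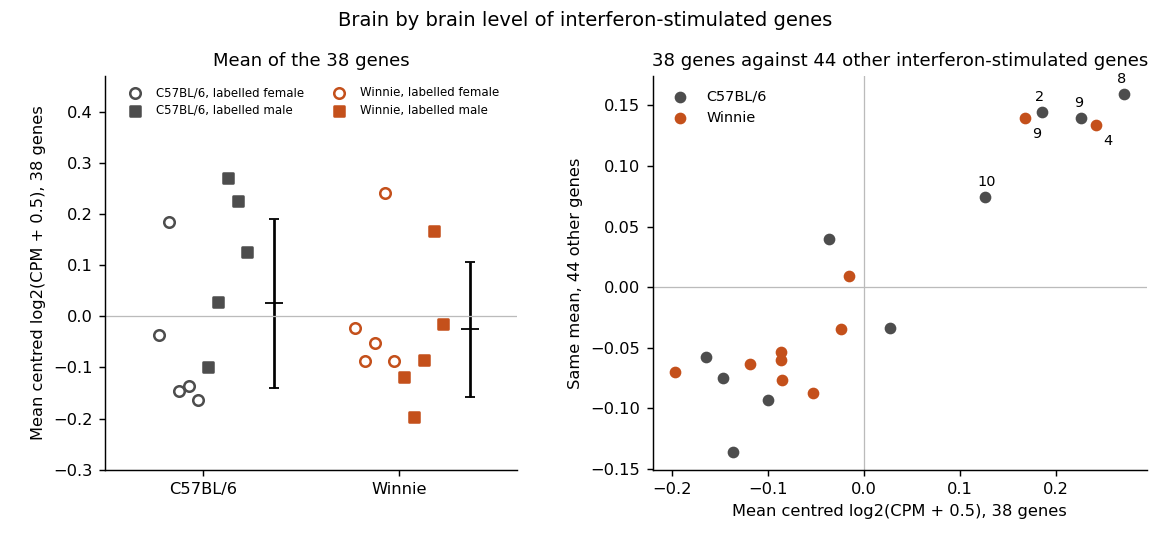
Left, mean of the centred log2(CPM + 0.5) values of the 38 genes in each brain by group, with open circles for samples labelled female, filled squares for samples labelled male, and bars for mean and SD (n = 10). Right, the same mean against that of 44 other interferon-stimulated genes, with the replicate number beside the 6 highest brains, which are the top 6 on both axes.

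Markers of cell types ranked high in some of these brains and low in others. In a whole-brain library, fewer cells of a type and less RNA per cell cannot be told apart. Of 15 microglia markers, all were listed, 13 had negative differences and 2 positive, with a median log2 fold change of −0.09. No microglia marker passed an FDR under 0.05, and 4, among them *Trem2*, *Cx3cr1* and *Aif1*, were lower in *Winnie* at an unadjusted p under 0.05. Their mean centred level ran from −0.0419 to 0.131 in C57BL/6 and from −0.168 to 0.202 in *Winnie* brains. Among the 6 brains named, the microglia mean ranked 6, 11, 4 and 10 in C57BL/6 replicates 8, 9, 2 and 10, and 13 and 1 in *Winnie* replicates 4 and 9. The endothelial mean ranked 16 and 17 in C57BL/6 replicates 8 and 9, and 1, 2, 5 and 3 in C57BL/6 replicates 2 and 10 and *Winnie* replicates 4 and 9. The part of microglia or endothelium in the levels of the 38 genes was not tested.

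Other cell types that express these genes gave few differences at an FDR under 0.05. Of 13 endothelial markers, 8 had positive and 5 negative differences. *Cldn5*, a tight junction protein, fell by 0.47 ± 0.08 on the log2 scale (FDR = 0.00331), while *Slco1a4*, *Abcb1a* and *Ly6c1* had positive differences of 0.34, 0.17 and 0.21 at an unadjusted p under 0.05, and the mean of the list ran from −0.162 to 0.240 in C57BL/6 and from −0.127 to 0.134 in *Winnie* brains. Of 15 lymphocyte markers only 4 were listed, and the defining *Cd3e*, *Cd8a* and *Nkg7* were not. *Trbc2*, the constant region of the T cell receptor beta chain, fell by 0.38 ± 0.10 (FDR = 0.0384), at 2.55 to 5.43 CPM in C57BL/6 and 2.31 to 3.47 CPM in *Winnie* brains. The 4 listed lymphocyte markers all had negative differences, and *Ighm* was also lower at an unadjusted p under 0.05. Of 11 markers of border macrophages and blood myeloid cells 7 were listed, with 5 positive and 2 negative differences, 2 positive ones at an unadjusted p under 0.05 and none at an FDR under 0.05, and *Ccr2* and *Ly6c2* were not listed. Of 9 astrocyte markers, 5 had positive and 4 negative differences. *Gjb6* rose by 0.22 ± 0.06 (FDR = 0.0384). At an unadjusted p under 0.05, *Fgfr3* was also higher, and *Aqp4* and *Sox9* had negative differences of −0.16 and −0.17. Of 10 meningeal markers, 7 had positive and 3 negative differences. *Slc22a6* rose by 0.39 ± 0.09 (FDR = 0.0216). At an unadjusted p under 0.05, *Fmod* was also higher, and *Col1a1* and *Col3a1* had negative differences of −0.24 and −0.28. In the remaining lists, none of the markers of choroid plexus, neurons, oligodendrocytes or red blood cells passed an FDR under 0.05. At an unadjusted p under 0.05, *Map2* of the neuron list was higher in *Winnie*. *Cnp* and *Ermn* of the oligodendrocyte list and *Hba-a2* of the red blood cell list were lower. Their part in the levels of the 38 genes was not tested.

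When the brains were divided by labelled sex, a division added after the data were seen, the median differences took opposite signs. In samples labelled female, 26 of the 38 genes had positive differences, and the median log2 fold change was 0.04. *Lgals3bp*, *Ifit3* and *Rtp4* were higher in *Winnie* at an unadjusted p under 0.05, 3 of 38 genes beside 6.71% of all genes, and none passed an FDR under 0.05. In samples labelled male, 34 of the 38 genes had negative differences, and the median was −0.13. The shares of all genes with positive or negative differences within a labelled sex were not determined. Whether these counts of signs are particular to the set is therefore not known. At an unadjusted p under 0.05, 10 of the 38 genes were lower in *Winnie*, beside 4.74% of all genes. These were *Ifi27*, *Samd9l*, *Ifi35*, *Usp18*, *B2m*, *Trim25*, *Lgals3bp*, *Gbp7*, *Ifit1* and *Oasl2*. Only *Ifi27* passed an FDR under 0.05, 1 of 38 genes beside 0.354% of all genes.

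*Ifi27* separated the groups in samples labelled male but not in those labelled female. The share of all genes that separate the groups within a labelled sex was not determined. How unusual the separation by *Ifi27* was is therefore not known. In samples labelled male it was at 13.1, 14.03, 14.9, 15.2 and 14.7 CPM in C57BL/6 and at 10.8, 10.9, 11.6, 12.025 and 9.498 CPM in *Winnie* brains. The groups did not overlap, and the log2 fold change was −0.38 ± 0.08 (FDR = 0.0418 by limma on these 10 samples). In samples labelled female it was at 13.8, 12.9, 14.9, 12.954 and 12.2 CPM in C57BL/6 and at 14.6, 10.3, 13.6, 15.5 and 11.986 CPM in *Winnie* brains, which overlapped (log2 fold change −0.03 ± 0.10, FDR = 0.938).

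*Lgals3bp* lay on opposite sides in the labelled sexes. In samples labelled female it was at 20.046, 20.999, 17.8, 21.8 and 22.3 CPM in C57BL/6 and at 23.1, 22.7, 23.964, 28.996 and 25.4 CPM in *Winnie* brains, without overlap (log2 fold change 0.26 ± 0.08, FDR = 0.188). In samples labelled male it was at 20.04, 24.2, 28.8, 28.9 and 25.5 CPM in C57BL/6 and at 17.2, 19.6, 19.9, 24.3 and 25.1 CPM in *Winnie* brains, with overlap (log2 fold change −0.26 ± 0.11, FDR = 0.368). The difference between the labelled sexes was −0.52 ± 0.14 on the log2 scale (unadjusted p = 0.00109, FDR = 0.424). As for *Ifi27*, how often all genes lack overlap within a labelled sex was not determined.

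The test of the difference itself did not pass for any gene of the set. In a fit with an interaction of genotype and labelled sex, 0 of the 38 genes passed an FDR under 0.05, and 5 passed an unadjusted p under 0.05 beside 6.12% of all genes. These were *Lgals3bp*, *Samd9l*, *Usp18*, *Ifi27* and *Oasl2*, all with a lower difference in samples labelled male. The labels themselves limit this comparison. In the 5 C57BL/6 samples labelled male *Xist* was at 663 to 865 CPM, and in the 5 *Winnie* samples labelled male it was at 0.107 to 0.630 CPM, so that *Xist* split these samples exactly as genotype did. In samples labelled female *Xist* was at 0.102 to 646 CPM in C57BL/6 and at 700 to 806 CPM in *Winnie* brains. As 9 of the 10 C57BL/6 samples went against the label, sex by these genes was mixed with genotype in both labelled sexes. With the level of *Ddx3y* in place of labelled sex, 0 of the 38 interactions passed an unadjusted p under 0.05. With *Ddx3y* as a covariate, the counts for the whole comparison stayed at 0 genes at an FDR under 0.05 and 2 at an unadjusted p under 0.05. The shares of all genes that passed in these fits with *Ddx3y* were not determined. Their counts therefore have no background and are not set against those by labelled sex.

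The high brains were unevenly placed among the labelled sexes. The mean of the 38 genes was −0.0595 ± 0.146 in C57BL/6 samples labelled female and 0.110 ± 0.150 in those labelled male (SD, n = 5), and C57BL/6 replicates 8, 9 and 10 were all labelled male. In *Winnie* samples it was −0.00143 ± 0.139 for those labelled female and −0.0495 ± 0.138 for those labelled male. The ranges of the 4 sets overlapped.

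**Figure D5:**
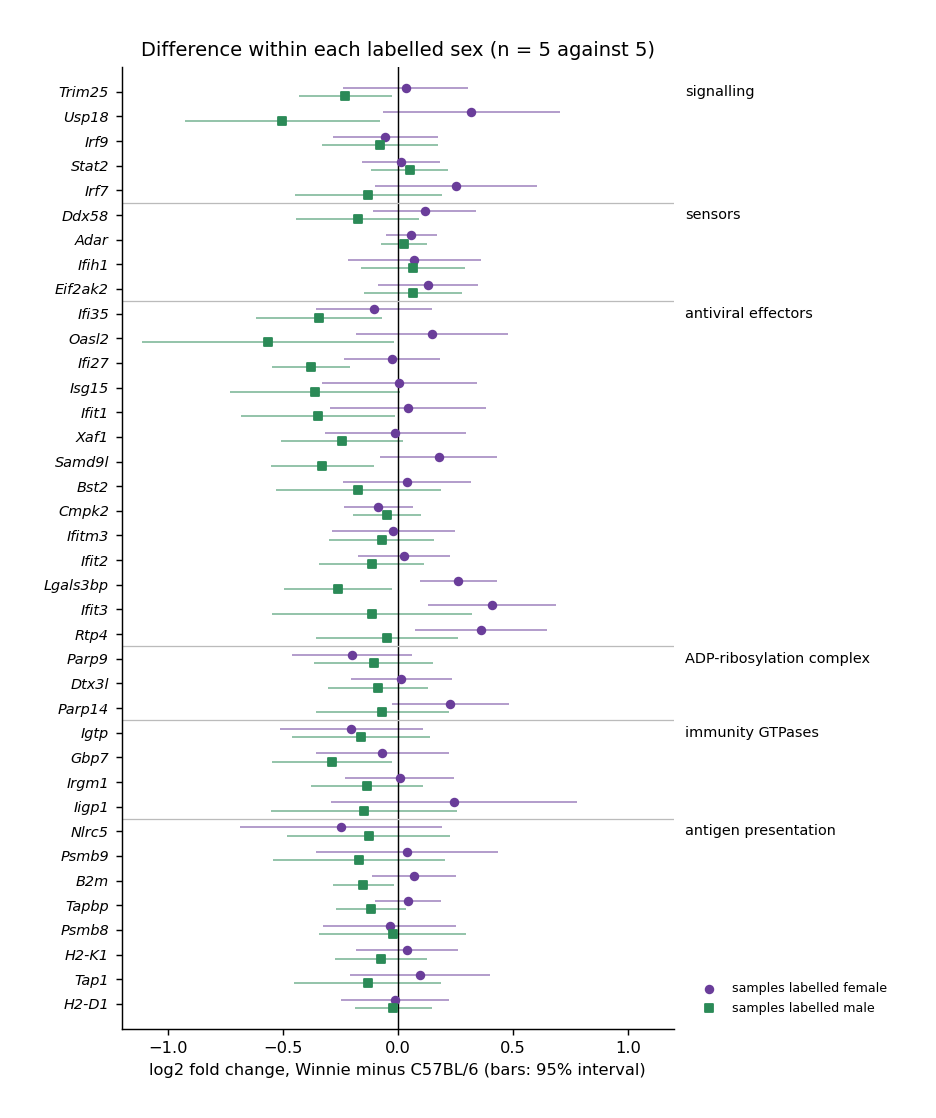
Log2 fold change of each of the 38 genes, *Winnie* minus C57BL/6, with its 95% confidence interval, in samples labelled female (circles) and in samples labelled male (squares), 5 against 5 brains each. Most circles lie right of 0 (26 of 38) and most squares left of it (34 of 38), and the intervals of a gene mostly overlap. The shares of all genes on each side of 0 were not determined. *Xist* and *Ddx3y* went against the label in 9 C57BL/6 samples.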

How the data were processed

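The authors sequenced polyA brain RNA (paired reads of 100 bases), counted reads on GRCm38 genes with featureCounts in RNAsik 1.5.4, and deposited CPM. The deposited values were whole multiples of 1 read in all samples (100% within 0.001 CPM), which gave total reads. Samples were grouped by labelled genotype, 10 in each group, where the study's text counts fewer brains, and all were used. Genes were compared with limma 3.58.1 (R 4.3.3) on log2(CPM + 0.5), with trended and robust variances, over all 17211 genes. The alternatives were other pseudocounts, a CPM minimum of 1, other scalings, a covariate for labelled sex or *Ddx3y*, the replicate number as a block, leaving out each sample, and edgeR 4.0.16 and DESeq2 1.42.0 on recovered reads. The scripts were checked on simulated data. The 38 genes and the other lists were chosen with earlier results of these data known. Every member is named. Values per brain are given for those at an FDR under 0.05, for the smallest p until 8 were reached, for the 2 with the widest log2(CPM + 0.5) range at 1 CPM or more, and for *Isg15*, *Irf7*, *Stat2*, *Tap1*, *B2m* and *H2-K1*. *Ifit3*, *Usp18* and *Lgals3bp* were added after their values were seen. Of other lists, genes at an FDR under 0.05 were named, up to 5 a list. *Ifnar1*, *H2-Eb1* and *Cd74* were added after their values were seen, as were some cell type markers at an unadjusted p under 0.05. Coordinates are from GENCODE on GRCm38. The samples are separate mice. Read-based precision covers counting error only. Some genes of the other lists are not reported here by name.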

Additional observations from a re-analysis of the deposited data

Results flagged for a closer look

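In 3 cases a brain lay far from the other 9 of its group, by the ratio of its gap to the whole range of the group. Over the 78 groups tested, chance flags about 1 in 20. *Ifit3* was at 10.398 CPM in *Winnie* replicate 4, and at 6.654 to 8.298 CPM in the other *Winnie* brains. *Dtx3l* was at 8.04 CPM in the same brain, and at 5.584 to 6.774 CPM in the others. *Stat2* was at 18.894 CPM in *Winnie* replicate 5, below the others at 21.786 to 25.572 CPM. *Winnie* replicate 4 was also the brain with most of the highest values in the set.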

How the results depend on the processing

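Over 30 planned settings, 29 of the 38 genes kept the direction of their difference in every one. *Lgals3bp* turned to −0.001581 with median-ratio scaling and to −0.0007988 with DESeq2. The other reversals occurred when a brain was left out. Over those fits the log2 fold change ran from −0.03693 to 0.04522 for *Lgals3bp*, −0.0713 to 0.008021 for *Ddx58*, −0.0485 to 0.02146 for *H2-D1*, −0.04558 to 0.02694 for *H2-K1*, −0.03568 to 0.13 for *Iigp1*, −0.004131 to 0.1227 for *Irf7*, −0.07901 to 0.009321 for *Psmb8*, −0.135 to 0.003506 for *Psmb9* and −0.06796 to 0.02333 for *Tap1*. The number of genes of the set at an FDR under 0.05 ran from 0 to 1 with a brain left out, with 1 only without *Winnie* replicate 4, and was 1 in samples labelled male, an added setting. The number at an unadjusted p under 0.05 ran from 2 to 5, with 5 without C57BL/6 replicate 5 or *Winnie* replicate 9 and 4 without *Winnie* replicate 4, and was 10 in samples labelled male. For the fits with a brain left out, the shares of all genes that passed were not determined. The mean of the set, *Winnie* minus C57BL/6, ran from −0.08064 without *Winnie* replicate 4 to −0.02362 without C57BL/6 replicate 8, and was 0.05804 in samples labelled female and −0.1599 in samples labelled male. The cause was not tested. With the replicate number as a block (replicate block), the set again had 0 genes at an FDR under 0.05 and 2 at an unadjusted p under 0.05, and all genes had 227 in place of 434. The same-numbered brains did not deviate together (correlations of −0.293 to 0.151), so the numbers name the samples and do not pair them. Over all genes edgeR gave 514 and DESeq2 977 at an FDR under 0.05, with 0 of the set in edgeR and 0 of the 30 genes of the set that DESeq2 gave an adjusted p. Depth limits the genes under 1 CPM most, where a brain held as few as 6 reads (*Usp18*).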
